A study of Mus musculus with 235 samples.

Results

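Livers of 4 C57BLKS/J and 4 C57Bl/6J female mice were compared after both strains had received vehicle alone. These 8 arrays, 1 per animal, were taken by their strain and treatment labels from a series of 235 arrays. The series covered 31 inbred strains given sterile water as vehicle or isoniazid, an antibiotic against tuberculosis that can injure the liver, at 100 mg/kg. Mice were aged 8 to 10 weeks and were gavaged daily over 3 days, and left lobe tissue was frozen 24 h after the final gavage. The submitters code C57BLKS/J as a strain with steatosis and C57Bl/6J as one without. No obesity or diabetes mutation is named in the labels of either strain, and litter and cage are not given, so p-values measure the spread between animals within a group, here as shared by all groups of the series.

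C57BLKS/J is a substrain of the C57 family whose genome is known to carry segments from DBA/2J and other strains. It is best known as the background on which loss of the leptin receptor gives severe diabetes with loss of beta cells, whereas on C57Bl/6J the same loss gives a milder and often passing hyperglycaemia. The liver stores and exports fat, makes bile acids from cholesterol and runs a daily clock in its own cells, and inherited variants act on the expression of genes in each of these functions.

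Hepatocyte genes dominated all 8 arrays, in keeping with the tissue label. The summed linear level of 12 hepatocyte markers was 129565 to 132214 in C57BLKS/J and 124051 to 128853 in C57Bl/6J, and each of the 8 arrays correlated best with its own strain among 31 strain means. Array medians of the 8 lay between 3.99 and 4.04 log2 units. Pearson r across genes, which are not independent replicates, was 0.988 to 0.994 within C57BLKS/J, 0.990 to 0.994 within C57Bl/6J and 0.984 to 0.990 between them.

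Of 18146 genes, 287 differed between the strains at an adjusted p under 0.05 (limma with Benjamini-Hochberg adjustment), which is 1.58% of those tested. C57BLKS/J was higher for 123 of them (0.678%) and lower for 164 (0.904%). The counts for gene lists below stand beside these shares over all genes. No set test was run on the lists, which were chosen with earlier results of these data known, so their shares are a description. The share over all genes includes dim genes, and with those left out 281 of 10888 genes passed. The change was at least 2-fold for 117 genes, 49 higher and 68 lower, and at least 4-fold for 23, 11 higher and 12 lower. For 266 of the 287 the 4 values of each strain did not overlap, against 10.2% of all genes. A fold of at least 1.5 was reached by 240 (1.32%), and the median size of the difference was 0.87 log2 units. With each of 34717 named probe sets tested on its own 478 passed (1.38%). All differences below are C57BLKS/J minus C57Bl/6J on the log2 scale. A probe set matches a reference sequence, so a sequence variant under a probe can alter its signal without a change in RNA, and its part in these results was not tested.

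In the genes with the largest differences the 4 animals of each strain lay far from those of the other. Tmem267, which encodes a membrane protein, read 3.62, 3.07, 3.44 and 3.26 in the C57BLKS/J animals and 7.65, 6.81, 6.72 and 6.72 in the C57Bl/6J animals. Every C57BLKS/J value lay more than 3 log2 units below every C57Bl/6J value, and the difference was -3.63 ± 0.33 (SE, limma adjusted p = 1.62e-18), or 12.4-fold. Pik3c2g encodes a class II phosphoinositide 3-kinase of the liver that acts in insulin-stimulated Akt2 signalling. Its levels were 6.75, 7.32, 6.99 and 7.27 in C57BLKS/J against 3.80, 3.18, 3.66 and 4.00 in C57Bl/6J, the lowest mean of all 31 strains. The C57BR/cdJ vehicle animals were close to it, at 3.82 ± 0.38 (SD, n = 4). C57BLKS/J and C57Bl/6J were far apart, with a difference of 3.42 ± 0.33 (adjusted p = 1.04e-16), or 10.7-fold.

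Crym encodes a cytosolic protein that binds thyroid hormone. It read 6.77, 7.49, 7.30 and 7.43 in C57BLKS/J and 3.87, 4.18, 3.94 and 3.84 in C57Bl/6J, a gap of 3.29 ± 0.27 (adjusted p = 2.69e-21) with no overlap. Rassf4, a Ras association domain gene, read 7.37, 8.80, 8.59 and 8.53 against 4.81, 5.51, 5.38 and 5.44. C57BLKS/J animal 1 was the lowest of its strain but still above all C57Bl/6J animals, and the difference was 3.04 ± 0.29 (adjusted p = 3.32e-17). All 3 Rassf4 probe sets were higher in C57BLKS/J, by 0.87, 3.04 and 2.07, each past the threshold.

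Other genes with higher signal in C57BLKS/J included Arhgef10, a guanine nucleotide exchange factor (2.47), and Wdfy1, an endosomal adaptor of Toll-like receptor signalling (2.47). Also higher were Vcpkmt, a lysine methyltransferase (2.19), Asgr2, a subunit of the asialoglycoprotein receptor of hepatocytes (1.69), and Cap1, a regulator of actin turnover (1.65). Wdfy1 was lowest in C57Bl/6J among all 31 strains, at 4.57 ± 0.33 (SD, n = 4) against 7.04 ± 0.11 in C57BLKS/J. Of its 5 probe sets 3 differed by 2.04 to 2.76 and 2 by 0.34 and 0.39 without passing. For Arhgef10 another probe set differed by 1.25 and a further one by -0.21, the latter not past the threshold.

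On the lower side stood Aox3, an aldehyde oxidase that oxidises drugs and aldehydes in the liver. It read 6.83, 5.90, 5.95 and 6.24 in C57BLKS/J and 8.82, 8.95, 8.60 and 9.24 in C57Bl/6J. All C57BLKS/J animals were well below all C57Bl/6J animals, with a difference of -2.67 ± 0.27 or 6.37-fold (adjusted p = 2.44e-15). Ccnf, which encodes cyclin F, differed by -2.58, and Rrm2, a subunit of the ribonucleotide reductase that cyclin F is known to target for degradation, by -2.24. Cyp2r1, a vitamin D 25-hydroxylase, differed by -2.02, and the uncharacterised transcript 1810053B23Rik by -3.24.

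**Figure D1:**
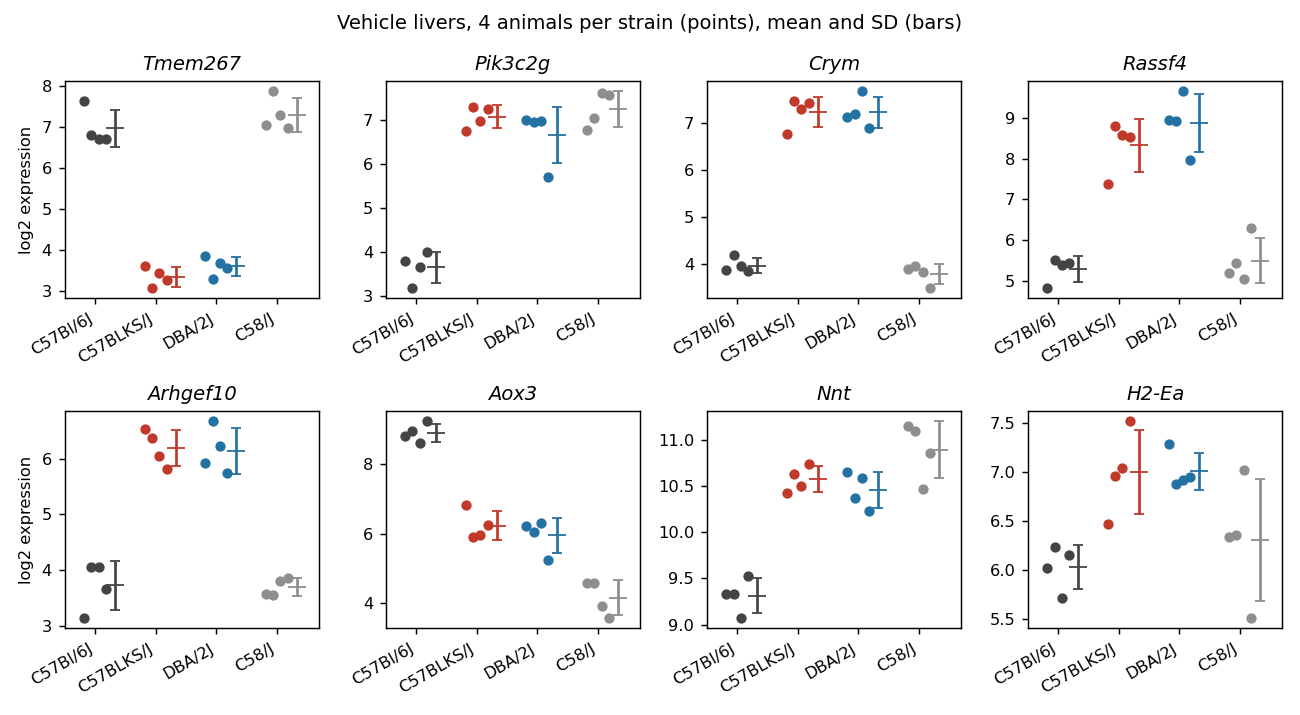
Log2 expression (y axis) of 8 genes in vehicle livers of C57Bl/6J, C57BLKS/J, DBA/2J and C58/J (x axis), with 1 point per animal and the mean and SD of 4 animals as a bar beside them. DBA/2J lies near C57BLKS/J for Tmem267, Crym, Rassf4, Arhgef10 and Aox3, C58/J lies near C57Bl/6J for Tmem267, Crym, Rassf4 and Arhgef10, and C57Bl/6J is the lowest of the 4 strains for Nnt.

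DBA/2J levels are given here beside the pair because segments of that strain are known in C57BLKS/J, and C58/J because it is another line of the C57 and C58 family. In vehicle animals DBA/2J averaged 3.61 for Tmem267, 7.24 for Crym, 8.87 for Rassf4 and 6.14 for Arhgef10, against 3.35, 7.25, 8.32 and 6.20 in C57BLKS/J. C58/J averaged 7.31, 3.78, 5.49 and 3.70 for the same genes, against 6.98, 3.96, 5.28 and 3.73 in C57Bl/6J. Such levels were not particular to DBA/2J. For Arhgef10 the median of the 29 strains outside the pair was also 6.14. For Crym that median was 4.62, with C57BLKS/J and DBA/2J at ranks 9 and 10 of 31 from the highest. Pik3c2g and Aox3 had other patterns, since Pik3c2g was 6.67 in DBA/2J and also 7.26 in C58/J, and Aox3 was 5.95 in DBA/2J and only 4.15 in C58/J. Fst, an activin antagonist, was high in C57BLKS/J and not in DBA/2J. It read 6.33, 7.80, 8.11 and 6.78 in C57BLKS/J, 5.08, 5.17, 4.99 and 5.58 in C57Bl/6J and averaged 5.26 in DBA/2J. The C57BR/cdJ mean for Fst was 7.60, above the C57BLKS/J mean of 7.25. Ptgds, a prostaglandin D2 synthase, was 7.83 ± 0.12 in C57BLKS/J, 5.83 ± 0.33 in C57Bl/6J and 5.33 in DBA/2J.

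A strain-wide view used the isoniazid arrays, which share no animal with the vehicle comparison. For each of the 287 genes it was recorded whether a strain's isoniazid mean lay nearer to that of C57BLKS/J or to that of C57Bl/6J. DBA/2J was nearer to C57BLKS/J for 202 genes (70.4%), the highest share of the 29 other strains. CBA/J followed with 186 genes. C58/J with 131 genes and C57BR/cdJ with 133 had the lowest shares. These shares are a description, since genes near each other on a chromosome are inherited together.

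**Figure D2:**
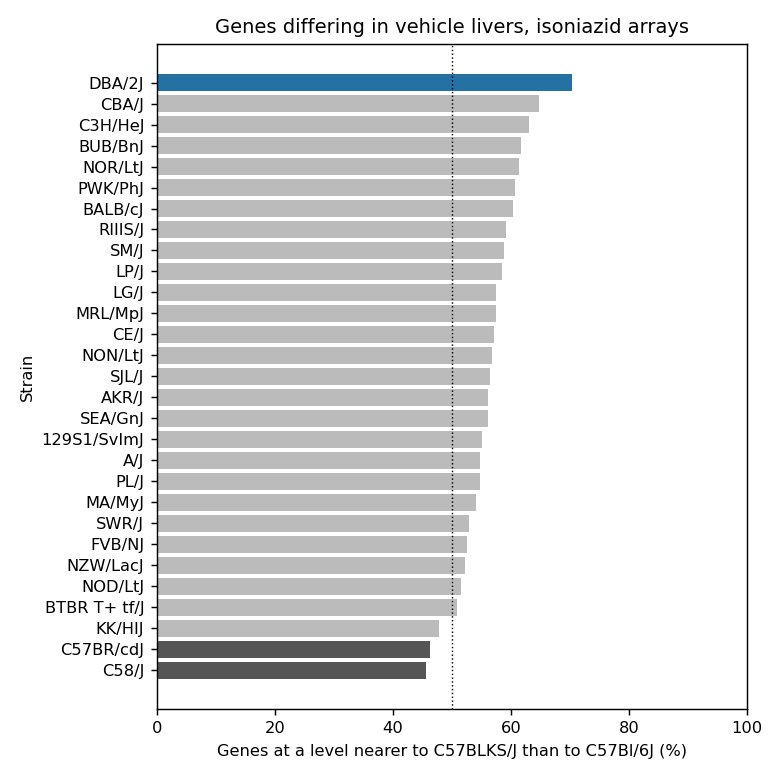
Share (x axis, %) of the 287 genes whose mean level on the isoniazid arrays lay nearer to C57BLKS/J than to C57Bl/6J, for each of the 29 other strains (y axis), with 50% as a dotted line. DBA/2J at 70.4% has the longest bar, SJL/J at rank 15 of the 29 lies at 56.4%, and C57BR/cdJ and C58/J have the shortest bars.

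Tests against C57Bl/6J on the isoniazid arrays gave the same ordering of these 2 strains. DBA/2J differed from C57Bl/6J for 1910 genes (10.5% of 18146), and 152 of the 287 (53.0%) were among them in the direction of C57BLKS/J, with 10 in the opposite direction. C58/J differed for 4392 genes (24.2%), which held 109 of the 287 in the same direction (38.0%) and 39 in the opposite one. These 2 comparisons share their C57Bl/6J arrays with each other, but not with the vehicle comparison.

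Some genes known to vary between laboratory strains were looked up. Of 12 measured, 3 were higher in C57BLKS/J and none was lower. Nnt encodes the nicotinamide nucleotide transhydrogenase, which makes NADPH in mitochondria, and C57BL/6J is known to carry a deletion in it. C57BLKS/J animals read 10.42, 10.63, 10.50 and 10.74, and C57Bl/6J animals 9.33, 9.33, 9.07 and 9.53. The strains did not overlap, the difference was 1.26 ± 0.15 (adjusted p = 2.78e-12), and the other 29 strain means ran from 10.17 to 11.05, all above C57Bl/6J. Both Nnt probe sets were higher in C57BLKS/J, by 1.26 and 1.25. Of 24 genes of NADPH and mitochondrial redox, Nnt was the only one higher, and Me1, the malic enzyme, was lower by a difference of -0.68 that lost its call (adjusted p from 0.085 to 0.27) when any 1 array of either strain other than C57BLKS/J animal 1 was left out.

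H2-Ea encodes a chain of the MHC class II molecule I-E, which mice of the H2-b haplotype, such as C57BL/6J, are known to lack. Its levels were 6.47, 6.96, 7.04 and 7.52 in C57BLKS/J and 6.02, 6.23, 5.71 and 6.15 in C57Bl/6J. The difference was 0.97 ± 0.22 (adjusted p = 2.32e-03) and fell to 0.80 (adjusted p = 0.073) without C57BLKS/J animal 4. Its 3 probe sets gave 0.97, 4.41 and -0.04, so the size depended on the probes. DBA/2J averaged 7.01. Of 26 MHC genes measured the only other that passed was H2-Q10, a secreted class I molecule, at -0.57. That call was lost without C57Bl/6J animal 1 or 2, or without any 1 of C57BLKS/J animals 1, 2 and 3.

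Glo1, glyoxalase 1, which detoxifies methylglyoxal and is known to be duplicated in DBA/2J and other strains, was 12.34, 11.73, 11.81 and 11.92 in C57BLKS/J and 11.35, 11.22, 11.41 and 11.55 in C57Bl/6J. The groups did not overlap and differed by 0.57 ± 0.14 (adjusted p = 7.46e-03), a call lost without C57Bl/6J animal 2 (adjusted p = 0.060) or C57BLKS/J animal 1 (adjusted p = 0.16). Hc, complement C5, which DBA/2J is known to lack through a deletion, was 11.67 ± 0.05 in C57BLKS/J and 11.46 ± 0.09 in C57Bl/6J, against 9.27 in DBA/2J. Its difference between the pair did not pass (adjusted p = 0.86). Ahr, the dioxin receptor, whose alleles differ between C57 strains and DBA/2J, differed by -0.07 without passing.

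Genes of fat handling that passed in vehicle animals were mostly lower in C57BLKS/J. Of 28 genes of lipid droplets and triglycerides, 4 were lower and none was higher (14.3% called, against 1.58% over all genes). The list's median difference was -0.15 against 0.01 over all genes. In isoniazid animals 3 of the 28 were lower and none was higher, and Mogat1 did not pass there (-0.51, adjusted p = 0.32). Cd36, a fatty acid importer at the cell surface, read 6.34, 7.88, 6.80 and 7.81 in C57BLKS/J and 9.48, 9.36, 9.60 and 9.38 in C57Bl/6J. C57Bl/6J animals were tightly grouped and C57BLKS/J animals spread widely, all below them. The difference was -2.25 ± 0.30 (adjusted p = 1.11e-09), or 4.75-fold, and the 3 probe sets gave -2.25, -2.50 and -2.51.

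Lpin1 encodes lipin 1, the phosphatidate phosphatase that makes diacylglycerol for triglyceride synthesis and also acts as a coactivator in the nucleus. It read 6.39, 6.43, 7.83 and 6.40 in C57BLKS/J and 9.37, 8.75, 9.37 and 9.45 in C57Bl/6J. C57BLKS/J animal 3 stood above its group but below all C57Bl/6J animals, and the difference was -2.47 ± 0.41 (adjusted p = 3.84e-06). Mogat1, a monoacylglycerol acyltransferase, was 3.80, 3.77, 4.15 and 3.86 against 5.43, 5.79, 4.75 and 5.21, a difference of -1.40 (adjusted p = 1.88e-06) without overlap. C57BLKS/J had the lowest Mogat1 mean of the 31 strains, at 3.89, close to the 3.90 of C57BR/cdJ. The C57BLKS/J mean lay below the medians of the 8 arrays (3.99 to 4.04), so its signal was dim. Fitm1, a protein of the endoplasmic reticulum that takes part in lipid droplet formation, differed by -1.24 (adjusted p = 1.01e-05). Plin2, which coats lipid droplets and follows stored fat, differed by 0.19 without passing (adjusted p = 0.94), and Cidec, a droplet fusion protein, by -1.20 (adjusted p = 0.072).

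Among 21 genes of fatty acid synthesis 1 was higher and 3 were lower (19.0% called, against 1.58% over all genes), and the median difference was -0.31. In isoniazid animals none of the 21 passed. Thrsp, or Spot14, a thyroid hormone responsive inducer of lipogenesis, read 7.91, 7.27, 8.03 and 8.48 in C57BLKS/J and 10.23, 9.88, 9.72 and 9.83 in C57Bl/6J. The groups did not overlap and differed by -1.99 ± 0.52 (adjusted p = 0.016), with adjusted p = 0.069 without C57Bl/6J animal 1 and 0.12 without C57BLKS/J animal 2. Elovl6, which elongates palmitate, differed by -1.03, with adjusted p = 0.16 without C57Bl/6J animal 2 and 0.056 without C57BLKS/J animal 1. Elovl1, which elongates very long chains, was the higher one at 0.63, a call that held only without C57Bl/6J animal 2 or C57BLKS/J animal 4. The lower Me1 is described above. Scd1, the desaturase, did not pass with its brightest probe set (-1.25, adjusted p = 0.20), although its other probe set differed by -2.19 (adjusted p = 0.0042). Fasn (-0.68) and Srebf1 (-0.61) did not pass. None of 28 genes of fatty acid oxidation and none of 26 genes of glucose metabolism passed.

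Of 28 lipoprotein genes Apoa4 and Pltp were lower and none was higher, with a median difference of -0.056 over the list. Apoa4, an apolipoprotein that follows hepatic fat load in mice, read 10.12, 10.33, 10.38 and 10.29 in C57BLKS/J and 12.02, 12.34, 11.55 and 11.30 in C57Bl/6J. C57BLKS/J had the lowest mean of the 31 strains, and the difference was -1.52 ± 0.25 (adjusted p = 3.54e-06). Pltp, the phospholipid transfer protein, differed by -0.997 with overlapping groups, since C57Bl/6J animal 2 at 8.24 lay below C57BLKS/J animal 2 at 8.29. Mfsd2a, a transporter of lysophosphatidylcholine, differed by -1.43 (adjusted p = 4.77e-04).

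**Figure D3:**
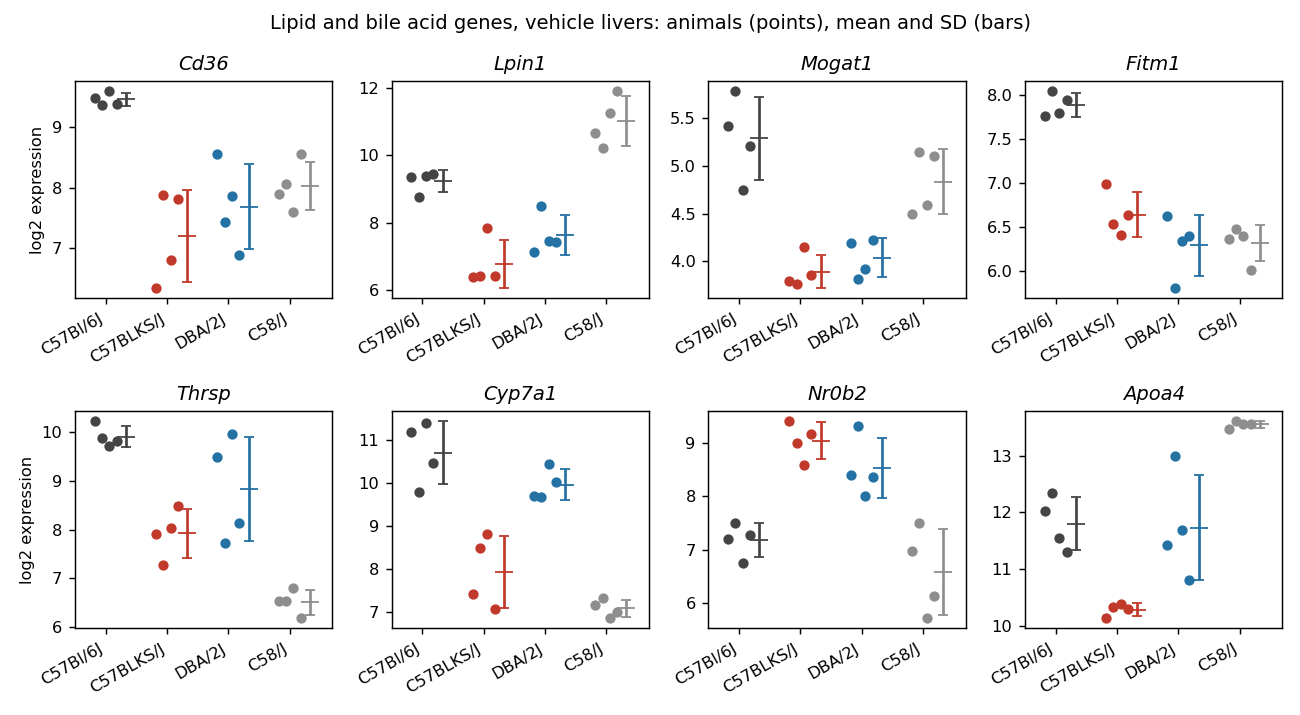
Log2 expression (y axis) of 8 lipid and bile acid genes in vehicle livers of 4 strains (x axis), with 1 point per animal and the mean and SD of 4 animals as a bar beside them. C57BLKS/J lies below C57Bl/6J without overlap for Cd36, Lpin1, Mogat1, Fitm1, Thrsp, Cyp7a1 and Apoa4 and above it for Nr0b2, while Lpin1 in C58/J, at 11.01, is higher than in either.

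Bile acid genes moved in both directions, with 3 of 26 higher and 1 lower (15.4% called, against 1.58% over all genes). Cyp7a1, which sets the pace of bile acid production from cholesterol, read 7.41, 8.49, 8.81 and 7.05 in C57BLKS/J and 11.19, 9.79, 11.41 and 10.47 in C57Bl/6J. All C57BLKS/J animals were lower, with a difference of -2.77 ± 0.43 or 6.84-fold (adjusted p = 3.02e-07). Nr0b2 encodes SHP, a nuclear receptor known to repress Cyp7a1. It read 9.42, 9.01, 8.60 and 9.17 in C57BLKS/J and 7.20, 7.50, 6.74 and 7.27 in C57Bl/6J, higher in every C57BLKS/J animal by 1.87 ± 0.38 (adjusted p = 3.66e-04).

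Cyp7b1, the oxysterol 7-alpha-hydroxylase of the alternative bile acid pathway, was 9.89, 8.44, 8.73 and 8.65 in C57BLKS/J and 7.59, 7.77, 7.32 and 7.69 in C57Bl/6J. C57BLKS/J animal 1 was highest, the groups did not overlap, and the difference was 1.33 ± 0.26 (adjusted p = 2.06e-04). Slco1a1, an organic anion transporter at the sinusoidal membrane, differed by 2.01 (adjusted p = 1.74e-04). Cyp39a1, an oxysterol hydroxylase counted with the cytochrome P450 genes, differed by -1.15 (adjusted p = 4.18e-03). DBA/2J averaged 9.96 for Cyp7a1, closer to the 10.71 of C57Bl/6J than to the 7.94 of C57BLKS/J.

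Within the 2 scan dates that held 1 array of each strain, the Cyp7a1 difference was -0.98 on the first and -2.92 on the second. The Lpin1 difference was -0.92 and -2.94 on the same dates. Of the 287 genes, all kept their sign on the first date and 285 on the second, the exceptions being C8b and Mmd2, which were singled out after their values were seen. These 4 arrays also belong to the 8 that gave the calls. Scan date as a term in the fit gave 290 genes, with 261 of the 287 among them in the same direction.

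Insulin and growth hormone signalling gave 4 higher genes of 30 and none lower (13.3% called, against 1.58% over all genes). In isoniazid animals 1 of the 30 was higher and none was lower. Igfbp2, an insulin-like growth factor binding protein that leptin is known to raise in liver, read 12.93, 12.99, 12.96 and 12.89 in C57BLKS/J, the highest mean of the 31 strains, and 12.07, 11.90, 11.97 and 12.17 in C57Bl/6J. The groups were tight and apart, with a difference of 0.92 ± 0.22 (adjusted p = 4.70e-03). Fetub, a liver secretory protein of the fetuin family, differed by 0.69 (adjusted p = 1.62e-04). Igf1 differed by 0.59 (adjusted p = 1.83e-05) with its brightest probe set, whereas its other 3 probe sets gave 0.13, -0.07 and 0.11, none past the threshold, and the mean over probe sets did not pass (0.19, adjusted p = 0.89).

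Irs2, the insulin receptor substrate of hepatocytes, read 7.08, 8.21, 8.16 and 7.50 in C57BLKS/J and 6.40, 6.67, 6.46 and 7.23 in C57Bl/6J, so the groups overlapped. The difference was 1.05 (adjusted p = 0.011), lost without C57Bl/6J animal 1 or 3 (adjusted p = 0.077 and 0.059) or C57BLKS/J animal 2 or 3 (adjusted p = 0.13 and 0.096). Insr, the insulin receptor, differed by 0.08, and the gluconeogenic genes Pck1 and G6pc by 0.28 and 0.45, none past the threshold. Lepr, whose mutation defines the diabetic line bred on C57BLKS/J, differed by -0.78 with an adjusted p of 0.78.

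Clock genes differed in both directions. The liver clock is a loop in which BMAL1 and CLOCK bind E-box sequences to drive the Per, Cry and Rev-erb genes and the output factor Dbp. DBP and its relatives act at D-box sequences, where NFIL3 is known to oppose them. Of 18 clock genes 1 was higher and 3 were lower (22.2% called, against 1.58% over all genes), and the median difference was -0.41. Sampling time of day is not given in the labels, and clock genes vary with it, so a shift in sampling time or in phase cannot be told apart from a difference in level.

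Dbp read 6.09, 6.97, 7.82 and 6.98 in C57BLKS/J and 9.20, 9.08, 9.32 and 8.66 in C57Bl/6J. Each C57BLKS/J animal was below each C57Bl/6J animal, with a difference of -2.10 ± 0.44 or 4.29-fold (adjusted p = 5.93e-04), and the second probe set gave -1.92. Ciart, a repressor within the clock also called Chrono, was 4.93, 4.80, 5.07 and 4.89 against 7.15, 6.23, 7.19 and 6.55, a difference of -1.86 ± 0.31 (adjusted p = 2.96e-06) with tight C57BLKS/J values far below. Nfil3 went the other way, at 8.01, 8.38, 7.94 and 8.31 in C57BLKS/J and 6.31, 6.42, 6.10 and 7.24 in C57Bl/6J, a difference of 1.64 ± 0.33 (adjusted p = 2.46e-04) without overlap.

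Per3, a period gene, differed by -1.21 with its brightest probe set (adjusted p = 0.013), while its other 5 gave -0.45 to 0.02, none past the threshold. That call was also lost without C57Bl/6J animal 1 or 3 (adjusted p = 0.056 and 0.086) or C57BLKS/J animal 4 (adjusted p = 0.11). Of the genes that did not pass, Per1 (-0.87), Per2 (-0.77), Hlf (-0.60) and Tef (-0.48) were negative and Arntl, which encodes BMAL1 (1.02), and Cry1 (0.66) were positive. Usp2, a clock-controlled deubiquitinase, and Wee1, a clock-controlled cell cycle kinase, lie outside the list and were chosen after their values were seen. They differed by -1.21 (adjusted p = 4.26e-03) and -1.39 (adjusted p = 3.32e-03).

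**Figure D4:**
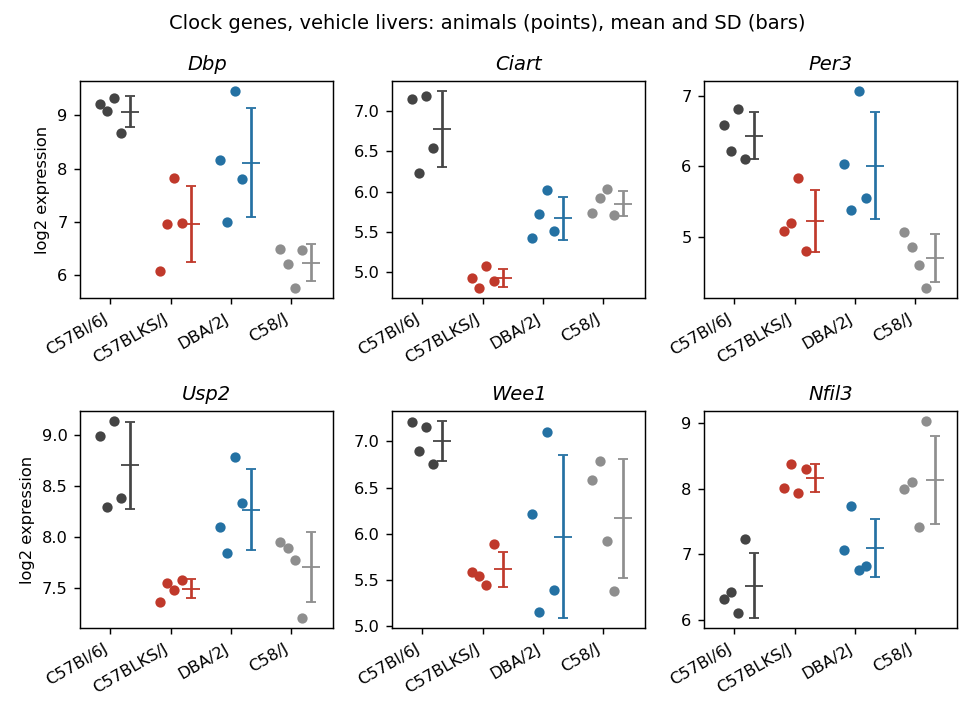
Log2 expression (y axis) of 6 genes of the clock and its output in vehicle livers of 4 strains (x axis), with 1 point per animal and the mean and SD of 4 animals as a bar beside them. C57BLKS/J lies below C57Bl/6J without overlap for Dbp, Ciart, Per3, Usp2 and Wee1 and above it for Nfil3, and C58/J, with 6.24 for Dbp and 8.14 for Nfil3, is on the side of C57BLKS/J for both.

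Promoters of the lower clock genes are shown to set clock elements beside the values, as the 250 bases before the start of transcription from RefSeq, assembly GRCm38.p6, written 5′ to 3′ on the gene's strand. Capitals mark the E-box CACGTG in Ciart (chr3:95882229-95882478, minus strand) and the D-box TTANGTAA in Per3 (chr4:151044666-151044915, minus strand), and Dbp (chr7:45704997-45705246, plus strand) has neither in this window. The reference is that of C57BL/6J, so no C57BLKS/J variant is shown.
Ciart: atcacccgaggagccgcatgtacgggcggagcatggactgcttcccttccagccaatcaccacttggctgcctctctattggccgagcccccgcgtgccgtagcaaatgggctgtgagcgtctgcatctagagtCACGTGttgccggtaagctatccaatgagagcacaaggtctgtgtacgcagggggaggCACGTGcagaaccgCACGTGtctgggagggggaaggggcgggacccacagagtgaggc
Per3: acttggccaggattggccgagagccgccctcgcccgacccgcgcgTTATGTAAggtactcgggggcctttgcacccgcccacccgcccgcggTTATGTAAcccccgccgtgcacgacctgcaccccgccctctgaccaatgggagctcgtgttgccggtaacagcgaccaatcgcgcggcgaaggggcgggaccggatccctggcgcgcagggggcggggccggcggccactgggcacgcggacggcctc
Dbp: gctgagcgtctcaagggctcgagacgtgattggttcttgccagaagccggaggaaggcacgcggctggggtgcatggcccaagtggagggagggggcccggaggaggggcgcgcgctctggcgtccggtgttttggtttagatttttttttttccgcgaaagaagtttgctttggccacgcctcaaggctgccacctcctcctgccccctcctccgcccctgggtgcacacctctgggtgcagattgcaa

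Ciart holds 3 E-boxes, which begin 116, 58 and 44 bases before the start, and Per3 holds 2 D-boxes, which begin 205 and 158 bases before it. Both motifs were searched on both strands and do not overlap each other as written. Over 32851 mouse promoters of the same length the E-box was present in 1978 (6.02%) and the D-box in 677 (2.06%). Of 16 clock genes with a promoter entry, 5 held the E-box and 1 the D-box. These matches are a description of the sequence, not of binding.

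In drug metabolism few genes of each list passed. Of 42 cytochrome P450 genes 4 were higher and 2 lower (14.3% called). Of 42 conjugating enzymes 1 was higher and 1 lower (4.76%), and of 15 carboxylesterases and amidases 1 was lower (6.67%). The share over all genes was 1.58%, and calls of 1 or 2 genes per list were not tested against it. Cyp3a16 read 1.83, 7.39, 6.99 and 5.88 in C57BLKS/J and 2.64, 1.89, 1.98 and 2.07 in C57Bl/6J. C57BLKS/J animal 1 was as low as the C57Bl/6J animals and the other 3 were far above them, so the groups overlapped (difference 3.38, adjusted p = 6.48e-03, and 0.13 and 0.078 without C57BLKS/J animal 2 or 3).

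Cyp3a44 is the neighbour of Cyp3a16 and similar in sequence, so a probe set may detect both. C57BLKS/J animal 1 was again low at 5.48, against 7.89, 7.86 and 7.70 in the other 3 and 5.56 to 5.97 in C57Bl/6J. Its difference of 1.52 lost the call without C57BLKS/J animal 2, 3 or 4 (adjusted p = 0.13, 0.10 and 0.096). Of 26 genes known to differ between the sexes in mouse liver 4 were higher, namely Cyp3a44, Cyp7b1, Slco1a1 and Susd4, and Cyp2b10 was lower. Susd4 differed by 0.69 with overlapping groups (adjusted p = 0.045), a call lost without any 1 of the C57Bl/6J animals and without C57BLKS/J animal 1 or 4 (adjusted p from 0.051 to 0.80). The same animal, C57BLKS/J animal 1, had the highest Slco1a1 (9.29) and Cyp7b1 (9.89) of the 8, both of which are known to be higher in males, yet its levels of Xist (10.3), expressed from the inactive X of females, and of the Y-linked Eif2s3y (2.12) lay within the range of the other 7 arrays. It also had the lowest Slc22a27 (4.92) and Slc22a29 (4.88), a pair of neighbouring organic anion transporters.

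Without that animal Slc22a27 lost its call (-1.17, adjusted p = 0.12, from -1.72). Slc22a29 differed by -1.80 (adjusted p = 2.41e-05). Sult5a1, a sulfotransferase, was higher in C57BLKS/J by 1.97 (adjusted p = 3.37e-07), Cyp2g1 by 1.56 (adjusted p = 3.95e-04) and Cyp2u1 by 0.85 (adjusted p = 2.35e-05). Cyp2b10, which the receptor CAR induces, read 10.22, 8.46, 11.02 and 8.41 in C57Bl/6J and 7.21 to 8.12 in C57BLKS/J. C57Bl/6J animals 1 and 3 were far above animals 2 and 4, and the difference of -1.82 lost its call without either (adjusted p = 0.15 and 0.30) and without C57BLKS/J animal 2, 3 or 4 (adjusted p = 0.13, 0.053 and 0.051).

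Genes of isoniazid and vitamin B6 metabolism were read at this baseline because the series went on to give that drug. Of 25 measured none was higher and 3 were lower (12% called, against 1.58% over all genes), namely Aox3, Csad and Gstm1. Csad, the cysteine sulfinate decarboxylase of taurine synthesis, was 9.37, 8.20, 8.74 and 7.82 in C57BLKS/J and 9.94, 10.31, 9.89 and 10.91 in C57Bl/6J. No value overlapped, and the difference of -1.73 (adjusted p = 4.06e-03) lost its call without C57Bl/6J animal 4 (adjusted p = 0.053) or C57BLKS/J animal 4 (adjusted p = 0.066). Gstm1, a glutathione transferase, differed by -0.64 (adjusted p = 0.018), lost without C57Bl/6J animal 1 or 3 or C57BLKS/J animal 2 or 3. Nat2, the arylamine acetyltransferase, differed by -0.24, Nat1 by -0.59, Cyp2e1 by 0.10 and Alas1, which starts heme synthesis, by -0.84, none past the threshold.

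Complement and coagulation genes that passed in vehicle animals were all higher in C57BLKS/J. Of 39 measured 4 were higher and none lower (10.3% called, against 1.58% over all genes). In the isoniazid animals of the same strains none of the 39 passed as higher and 1 was lower. There the 4 genes kept a positive difference without passing, at 0.40 for F11, 0.31 for C2, 0.35 for C8b and 0.13 for Plg. F11, coagulation factor XI, read 7.12, 7.47, 7.36 and 7.84 in C57BLKS/J and 6.53, 6.18, 6.61 and 6.56 in C57Bl/6J, the lowest mean of the 31 strains. The groups did not overlap and differed by 0.98 ± 0.21 (adjusted p = 7.38e-04). C2 of the classical complement pathway differed by 0.66 (adjusted p = 4.77e-04), and Plg, plasminogen, by only 0.22 (adjusted p = 8.00e-03, and 0.066 without C57Bl/6J animal 2). C8b, a subunit of the membrane attack complex, differed by 0.73, by 0.79 within the first shared scan date and by -0.04 within the second, and its call held only without C57Bl/6J animal 3 or C57BLKS/J animal 2.

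C-reactive protein, Crp, was higher by 0.57 (adjusted p = 1.24e-03), and of 26 acute phase genes the only other that passed was Cebpb, a liver transcription factor, at -0.73. In isoniazid animals none of the 26 passed. The Cebpb call was lost without C57Bl/6J animal 1 or C57BLKS/J animal 3 or 4 (adjusted p = 0.10, 0.052 and 0.066). Hhex, a homeobox factor of liver development, was higher by 1.66 (adjusted p = 3.79e-05). Of 20 NRF2 targets 1 was higher and 1 lower, and of 24 heme and iron genes 1 was lower. Of 32 interferon-induced genes Xaf1 alone passed, at -1.17 with its brightest probe set and 2.95 with the other, so its direction depended on the probe set. None of 38 oxidative phosphorylation genes passed, and of 32 genes of the unfolded protein and integrated stress response only Calr did (0.73, adjusted p = 0.045), with no call in any leave-out except that of C57Bl/6J animal 2 or 4.

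Markers of other cells could change with the cell content of the tissue, and in bulk liver fewer cells of a type and less RNA per cell cannot be told apart. Over 16 endothelial markers none passed, the median difference was -0.39 and 13 were negative. Their summed linear level was 1659 to 2329 in C57BLKS/J and 2410 to 2823 in C57Bl/6J, without overlap. With the 8 arrays fitted alone 5 passed, with animal number as a block 5, with arrays of narrow spread left out 4, and without C57Bl/6J animal 3 or C57BLKS/J animal 1 a single one. Pecam1 differed by -1.08 (adjusted p = 0.072), Kdr by -0.74 and Tek by -1.03. Of the 16, Pecam1, Tie1 and Vwf lay below the array median on all 8 arrays. Markers typical of liver sinusoids ran from Oit3 (-1.15) and Fcgr2b (-0.77) through Mrc1 (-0.49), Clec4g (-0.36) and Stab2 (-0.15) to Stab1 (0.03) and Lyve1 (0.16). Genes known in endothelium that passed, chosen after their values were seen, were Btnl9 (-1.79), Adgrf5 (-1.05) and Clec14a (-0.95). The other probe set of each gave -0.35, -0.38 and -0.88, none past the threshold. The part of cell content in these genes and in Cd36, which endothelial cells also express, was not tested.

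Macrophage, stellate, T and NK, B, neutrophil, red cell, pancreatic and adipocyte markers gave no gene past the threshold, and of 8 bile duct markers Epcam alone was lower (-0.89). Many of these markers were dim. Below the array median on all 8 arrays lay 12 of 15 T and NK, 9 of 10 neutrophil and 7 of 10 pancreatic markers. The same held for 6 of 10 B cell and 6 of 8 bile duct markers. For these types the absence of a call says little about cell content. The summed level of 17 macrophage markers was 3336 to 6284 in C57BLKS/J and 3826 to 4716 in C57Bl/6J. That of 7 adipocyte markers was 2756 to 4888 and 4745 to 6506, and Lep, Retn and Ucp1 lay below the array median on all 8 arrays.

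Differing genes were spread over the genome with some in local runs. Chromosome 9 had the highest share, 30 of 1000 measured genes (3%), followed by chromosome 17 with 21 of 831 (2.53%). Chromosome X had 1 of 615 (0.163%), and chromosomes 18 and 2 had 2 of 457 and 10 of 1398. Of 284 differing genes placed on assembly GRCm38.p6, 26 lay next to another in the order of measured genes. The longest runs had 3 genes, Tedc2, Ccnf and Abca3 on chromosome 17 and Ppt1, Cap1 and Mfsd2a on chromosome 4.

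Of the 12 runs of 2 or 3 genes, 9 went one way, such as the higher Rassf4 and Depp1 and the lower Ppil3 and Nif3l1, and 3 were mixed. Among the mixed ones Abca3, a phospholipid transporter, was higher by 1.03 next to the lower Ccnf (-2.58) and Tedc2 (-1.61), and Cap1 was higher by 1.65 next to the lower Mfsd2a. The densest window of 50 genes, with 7 that differed, was on chromosome 6 and held Lrp6, Dusp16, Gpr19, Fam234b, Erp27, Pde6h and Pik3c2g. A window of 50 at the end of chromosome 13 held 5, including Fst, Nnt, Tmem267 and Hmgcs1. By contrast 376 of 690 such windows, which overlap each other, held none.

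The strain comparison was repeated in the isoniazid animals of the same strains, 4 of each and none of them in the vehicle groups. On 1 of them, C57Bl/6J animal 3, the log2 values had a narrower spread than on most arrays. There 313 genes differed (1.72% of 18146), 170 higher (0.937%) and 143 lower (0.788%), and 354 when arrays of narrow spread were left out. Of the 287 genes 135 passed again in the same direction, 47.0% of the vehicle calls and 43.1% of the isoniazid calls, and none passed in the opposite one. The sign was kept for 277 of the 287. Tmem267 differed by -4.07 under isoniazid, Pik3c2g by 4.12, Crym by 3.60, Rassf4 by 3.14, Aox3 by -2.94, Lpin1 by -2.37 and Nnt by 1.51, each past the threshold.

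**Figure D5:**
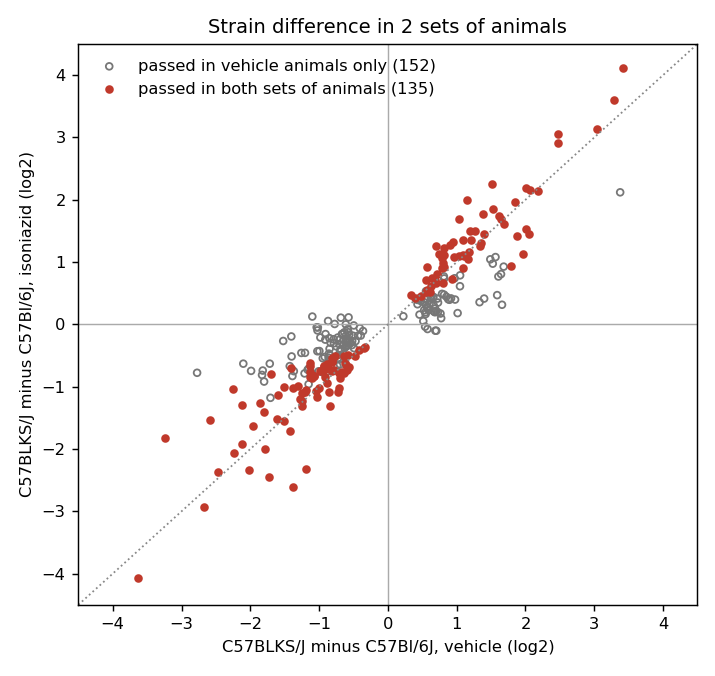
Log2 difference of C57BLKS/J minus C57Bl/6J in vehicle animals (x axis) and isoniazid animals (y axis) for the 287 genes that passed in vehicle animals, with 1 point per gene and a dotted line of equal differences. Filled points are the 135 genes that passed in both sets, and open points the 152 that passed in vehicle animals and not in isoniazid animals.

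Clock and bile acid genes divided between those that passed again and those that did not. Under isoniazid Cyp7a1 differed by -0.78 (adjusted p = 0.45) and Cyp7b1 by 0.36 (adjusted p = 0.60). Dbp differed by -0.63 (adjusted p = 0.58), Per3 by -0.46 (adjusted p = 0.56) and Nfil3 by 0.81 (adjusted p = 0.25). Ciart (-1.26), Nr0b2 (1.42) and Slco1a1 (1.53) passed. Apoa4, of the lipoprotein list, differed by -0.27 (adjusted p = 0.70). No gene (0%) passed the test of strain by treatment (limma, 1067 genes at an unadjusted p under 0.05), so no difference was shown to depend on treatment. Its adjusted p was 0.60 for Cyp7a1, 0.80 for Dbp and 0.58 for Apoa4. Without C57BLKS/J vehicle animal 3 the test called 1 gene, the peptidyl-prolyl isomerase Ppil3 (adjusted p = 0.010), which differed by -1.69 in vehicle and -0.80 in isoniazid animals.

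Genes of cholesterol synthesis and uptake passed in vehicle animals in a number that depended on the fit. Of 21 genes, 1 was lower in vehicle animals (4.76% called, against 1.58% over all genes), and 20 had a negative difference. In isoniazid animals 13 of the 21 were lower and 1 was higher, against 1.72% called over all genes. The medians were -0.37 in vehicle and -1.01 in isoniazid animals. The 1 in vehicle animals became 6 with the 8 arrays fitted alone and 0 without C57Bl/6J animal 2 or 4 or C57BLKS/J animal 3 or 4. In the isoniazid animals 4 of 17 macrophage markers were also lower, with a median of -0.93 against 0.10 in vehicle animals. That 4 became 0 without C57BLKS/J isoniazid animal 3, and the markers' part in the result was not tested. Hmgcs1, the HMG-CoA synthase that feeds the pathway, read 8.90, 8.93, 8.72 and 8.82 in vehicle C57BLKS/J, the lowest mean of the 31 strains, and 9.99, 10.18, 9.60 and 10.38 in C57Bl/6J. The groups did not overlap and differed by -1.20 (adjusted p = 0.020), a call lost without C57Bl/6J animal 2 or 4 or C57BLKS/J animal 3 or 4 (adjusted p from 0.061 to 0.12). In isoniazid animals the difference was -2.32 (adjusted p = 6.09e-09). Mvd, the mevalonate decarboxylase, differed by -0.23 and -2.01, and its test of strain by treatment gave an adjusted p of 0.52. The 13 became 10 to 13 when 1 isoniazid array was left out.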

How the data were processed

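Liver RNA was measured on Affymetrix mouse expression arrays. Per the submitters' processing notes, RMA and Affymetrix Power Tools were used, and the deposited values are taken as log2 expression per probe set from their range. Tool versions were not given in the sources used here. The method equalises the distributions of the arrays, so a shift shared by all genes would be removed. Values ran from 1.15 to 14.65, and the number of arrays limits the precision.

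Of 44721 probe sets, 34717 had 1 gene symbol, 872 had several, 9072 were unnamed and 60 were controls. Of the named ones 34514 matched RefSeq assembly GRCm38.p6, used for names and gene order, and 0 symbols changed. Each gene was represented by its brightest probe set over the series, which left 18146 genes, 8949 of them with several probe sets. No dim genes were left out.

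All 235 arrays were fitted in limma 3.58.1 (R 4.3.3, lmFit and eBayes) as 62 groups of strain and treatment, which share 1 estimate of the spread with 173 residual degrees of freedom. P-values were two-sided and adjusted by the Benjamini-Hochberg method over 18146 genes, with 0.05 as the threshold. The script was tested on simulated data. The gene lists, 35 with 778 of 892 entries measured, and the members compared were chosen with earlier results of these data known. Named genes were the 20 largest differences each way among genes that passed with non-overlapping groups, up to 4 passing members per list, up to 5 genes of the strain by treatment test, the members of the longest runs and a fixed set of metabolic genes. Numbers of replicates were compared between the strains, and same-numbered vehicle animals had correlations of their deviations from -0.098 to 0.044, so the numbers were not used as pairs. Tables and figures were made with Python 3.11.15, pandas 2.3.3 and matplotlib 3.10.9. Alternatives covered the arrays in the fit, scan date, scaling, probe set choice, dim genes, moderation, animal number as a block and each animal left out.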

Additional observations from a re-analysis of the deposited data

Results flagged for a closer look

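In 11 of 206 sets of 4 animals, taken over 103 named genes in both strains, 1 animal stood far from the other 3, by a test that flags about 1 set in 20 by chance. Among C57BLKS/J animals, animal 3 was high for Lpin1 at 7.83, with the others at 6.39 to 6.43. It was also high for Rrm2 at 5.12 and for Ahr at 8.90, and low for C2 at 8.99. Animal 1 was low for Cyp3a44 at 5.48, and animal 2 high for Cebpb at 10.32. Among C57Bl/6J animals, animal 1 was high for Tmem267 at 7.65 and low for Btnl9 at 5.70. Animal 2 was low for Lpin1 at 8.75, for Asgr2 at 6.86 and for Arid3b, whose strain difference did not pass, at 3.62. The Lpin1, Rrm2, Tmem267, Btnl9 and Asgr2 groups did not overlap with these animals included.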

How the results depend on the processing

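The 287 genes became 197 to 247 when 1 of the 8 animals was left out. With the 8 arrays fitted alone they became 492, with arrays of narrow spread left out 534, and with every probe set tested on its own 478. The 240 genes that were also 1.5-fold apart, and the counts of 281 to 325 with other scaling, scan date, probe set means, moderation, vehicle arrays alone or dim genes left out, were within 1.5 times of 287. Of the 287, 228 to 287 passed again in the same direction in the settings with the 18146 genes and no animal left out, apart from the block. Animal number as a replicate block gave 330 genes in vehicle animals (201 of the 287 among them), 140 in place of 313 in isoniazid animals and 0 for strain by treatment, and the pairing check gave no support for using the numbers as pairs. The count for strain by treatment was 0 to 1 when 1 animal was left out. Among the named genes the direction turned for Xaf1 with the mean of its probe sets (0.89) and for C8b within the second shared scan date (-0.039), and over the 287 it turned for 5 and 2. Fitting the 8 arrays alone kept 237 of the 287. Among the named genes it ended the calls of Bmp6, C8b, Cyp2b10, Cyp3a16, Cyp3a44, Epcam, Glo1, Irs2, Plg, Pltp, Slc22a27 and Xaf1, and gave calls for Scd1, Srebf1 and Alas1. The mean of probe sets kept 228 and ended, among the named genes, those of Calr, Cebpb, Cyp2u1, Epcam, Glo1, Igf1, Me1, Per3 and Ppt1. Cholesterol genes lower in vehicle animals numbered 4 with the block, and macrophage markers lower in isoniazid animals 10. The causes were not tested. Arrays compress low signals, so differences of dim genes are bounded by the background, and 4 animals a strain limit small differences.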

Other observations

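The 287 genes were also placed among the other 29 strains of the series, in vehicle animals. C57Bl/6J lay outside the range of those 29 means for 52 genes and C57BLKS/J for 31. C57Bl/6J was farther from the median of the 29 for 161 genes and C57BLKS/J for 126. Among the genes lowest of the 31 strains in C57Bl/6J were Pik3c2g, Wdfy1, Nnt, Igf1 (by its brightest probe set), F11, Plg and Cyp3a44. Among those highest there were Elovl6, Clec14a and Epcam. Among the genes lowest in C57BLKS/J were Ppil3, Nif3l1, Mogat1, Apoa4, Hmgcs1 and Cebpb, and among those highest there were Igfbp2 and Elovl1. Some of these ranks were near ties. The lowest of the other 29 means was 11.5843 for Igf1, 5.72 for Cyp3a44, 13.35 for Plg and 6.56 for F11. C57Bl/6J had 11.5825, 5.71, 13.33 and 6.47 for these genes. For C57BLKS/J the nearest of the 29 was 3.90 against 3.89 for Mogat1, 8.89 against 8.84 for Hmgcs1 and 8.45 against 8.47 for Elovl1. Ppil3 and Nif3l1 are neighbours on chromosome 1, at 5.40 ± 0.48 and 4.80 ± 0.30 in C57BLKS/J (SD, n = 4) and 7.09 ± 0.05 and 5.90 ± 0.23 in C57Bl/6J, and the second probe set of Ppil3 differed by 0.06.

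Of the 287 genes 161 had several probe sets. For 61 of them another probe set passed in the same direction, and for 6 another passed in the opposite one. For 19 all other probe sets had the opposite sign.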
